A study of Mus musculus with 12 samples.

Results

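The mid-colon of mice on day 6 of drinking dextran sulfate sodium (DSS) was compared with the mid-colon of mice on day 2, so that both sides of the comparison had drunk DSS and differed in how long. All genes with at least 1 CPM (reads scaled to a common library total) in at least 3 of the 12 libraries of the series were taken, which gave 15246 of the 25904 genes listed, measured in 3 libraries at day 6 and 3 at day 2. Animals of both days were kept free of specific pathogens, started at 7 weeks of age and drank 3% DSS, and the labels used here name no strain, sex, genotype or further agent. The tissue was whole mid-colon, so mucosa, muscle, vessels and nerves contribute RNA to every library. No water-drinking group is labelled for day 2 or day 6, so longer exposure, later harvest and higher age cannot be told apart here. Whether the replicates of a day were separate animals is not stated, and p-values therefore reflect the variation among these libraries, possibly technical.

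DSS is a sulfated polysaccharide that damages the epithelial lining of the colon. In this widely used model the epithelium and its mucus layer fail over several days, gut bacteria reach the tissue, and neutrophils and monocytes are drawn out of the blood by chemokines. Neutrophils and macrophages carry antimicrobial proteins and proteases, lymphocytes make interferon gamma, and fibroblasts remodel the matrix around them. The healthy colonic epithelium consists mainly of absorptive colonocytes, which take up salt, water and butyrate and break down foreign compounds, and of goblet cells, which secrete the mucin Muc2. In bulk tissue a lower level of a cell type's genes can come from fewer such cells or from less RNA of those genes per cell, and the libraries cannot tell these apart.

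The libraries held 37700091 to 40930613 reads in listed genes at day 6 and 35388651 to 39658220 at day 2, so a gene at 1 CPM rested on more than 30 reads. Across genes, which are not independent replicates, the 3 day 2 libraries correlated with r of 0.985 to 0.988. At day 6, replicates 1 and 3 correlated with r of 0.978, while replicate 2 correlated with them at 0.955 and 0.914 and stood apart on the second principal component. The median standard deviation between replicates was 0.319 at day 6 and 0.144 at day 2 on the log2(CPM + 1) scale, and the test used 1 spread for all days. Mitochondrially encoded genes took 2.81% to 3.38% of reads at day 6, against 5.09% to 5.70% at day 2, and the 10 most abundant genes took 5.33% to 6.93%, against 10.2% to 11.7%. Muc2, Car1 and Epcam, markers of colonic epithelium, were detected in all 6 libraries.

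The promoters of 5 genes that were far higher at day 6 are shown because they carry letters bound by factors of inflammation. Saa3, Lcn2 and Mmp8 belong to the acute phase and neutrophil genes, and Cxcl10 and Gbp5 to the interferon-induced genes. Each window is the 250 bases before the RefSeq transcription start (GRCm38.p6), given in the direction of transcription. Capitals mark matches on either strand to the letters of C/EBP (TTGCNNAA, where N is any base, in Saa3, Lcn2 and Mmp8), of the interferon response element (TTTC, any 2 bases, TTTC, in Saa3, Cxcl10 and Gbp5) and of kappaB (GGG, any 2 bases, TTTCC, in Gbp5).
Saa3, chr7:46715677-46715926, strand -: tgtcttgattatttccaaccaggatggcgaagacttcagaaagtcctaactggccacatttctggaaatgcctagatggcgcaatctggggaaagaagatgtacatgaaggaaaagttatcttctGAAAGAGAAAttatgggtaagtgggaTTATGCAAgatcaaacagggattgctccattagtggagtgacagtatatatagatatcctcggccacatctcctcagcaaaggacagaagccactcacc
Lcn2, chr2:32387740-32387989, strand -: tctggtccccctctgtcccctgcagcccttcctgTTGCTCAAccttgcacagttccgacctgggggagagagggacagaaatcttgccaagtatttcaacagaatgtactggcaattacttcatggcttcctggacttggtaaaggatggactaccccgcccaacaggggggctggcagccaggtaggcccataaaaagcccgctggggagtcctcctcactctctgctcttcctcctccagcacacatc
Mmp8, chr9:7558179-7558428, strand +: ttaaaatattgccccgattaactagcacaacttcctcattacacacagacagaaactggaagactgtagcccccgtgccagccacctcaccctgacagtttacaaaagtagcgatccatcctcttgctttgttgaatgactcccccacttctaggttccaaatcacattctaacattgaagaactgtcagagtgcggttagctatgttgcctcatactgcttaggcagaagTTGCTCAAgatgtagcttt
Cxcl10, chr5:92348890-92349139, strand -: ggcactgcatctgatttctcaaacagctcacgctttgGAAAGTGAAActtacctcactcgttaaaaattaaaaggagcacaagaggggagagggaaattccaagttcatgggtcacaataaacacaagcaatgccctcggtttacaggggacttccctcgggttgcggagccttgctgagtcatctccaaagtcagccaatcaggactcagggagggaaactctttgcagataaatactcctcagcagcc
Gbp5, chr3:142496684-142496933, strand +: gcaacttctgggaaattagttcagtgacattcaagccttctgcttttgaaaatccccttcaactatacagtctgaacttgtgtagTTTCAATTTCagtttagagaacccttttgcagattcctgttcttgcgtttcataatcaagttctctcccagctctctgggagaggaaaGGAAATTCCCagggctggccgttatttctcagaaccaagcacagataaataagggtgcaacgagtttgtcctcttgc
The C/EBP match lay 99 bases before the start of Saa3, 216 before that of Lcn2 and 19 before that of Mmp8. The interferon response element lay 125 bases before the start of Saa3, 213 before that of Cxcl10 and 165 before that of Gbp5. Of the 15 genes with the largest rise, 11 had a RefSeq window, and 5 of these, Lcn2, Mmp3, Mmp8, S100a9 and Saa3, held the C/EBP letters, against 10.8% of 27025 genes with a window and 1 of 13 genes among the 15 largest falls. Among the interferon-induced genes that rose, 16 of the 22 with a window held the interferon response element, against 3.46% of all genes. That list was made of known interferon-induced genes, and its members that did not pass were not searched, so the share does not bear on the rise. Among the largest changes, the interferon response element was in 1 of the 11 rises and 0 of the 13 falls. The kappaB letters were in 1 of the 11 rises and 1.65% of all genes. Letters of factors of the intestinal epithelium were searched as well. TTTATNG (CDX) stood in 4 of the 11 rises and 2 of the 13 falls, against 11.3% of all genes, and GTTAAT, any 2 bases, TT (HNF1) in 0 of the rises and 1 of the falls, against 1.10%. CAAAGTCCA (HNF4) was in no window of either group, against 0.451%. The kappaB and interferon letters share the run TTTC and can overlap, though they did not in Gbp5. A match shows only that the letters are present.

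The largest changes were rises. At an adjusted p under 0.05 (limma), 3216 genes were higher at day 6 and 1866 lower, which is 33.3% of the 15246 genes tested, 21.1% higher and 12.2% lower. Counts within gene lists below are to be read against these shares. More than 2-fold changes, tested against that limit, numbered 612 higher (4.01% of genes) and 218 lower (1.43%), 5.44% together. Rises of at least 3 on the log2 scale numbered 247, falls of that size 56. At a log2 change of 5 or more there were 40 rises and 3 falls. The 3 libraries of day 6 lay wholly above or below the 3 of day 2 for 43.9% of genes, 27.2% above and 16.7% below. On the other side, 2344 genes had a 95% confidence interval of the log2 fold change within 0.5 of zero.

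The excess of rises over falls depended on scaling. On CPM as deposited 63.3% of calls were higher at day 6, against 52% with median-of-ratios scaling (2533 higher, 2338 lower), 46.4% with quantile normalization (2334 and 2693), 55.4% in edgeR on the recovered reads (2716 and 2189) and 54.1% in DESeq2 (3136 and 2662). Over all genes tested, the middle log2 fold change stood at 0.12 on deposited CPM and at -0.045 after quantile normalization. Without day 6 replicate 3 the count of falls over 2-fold was 351, and without day 6 replicate 1 it was 144.

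**Figure D1:**
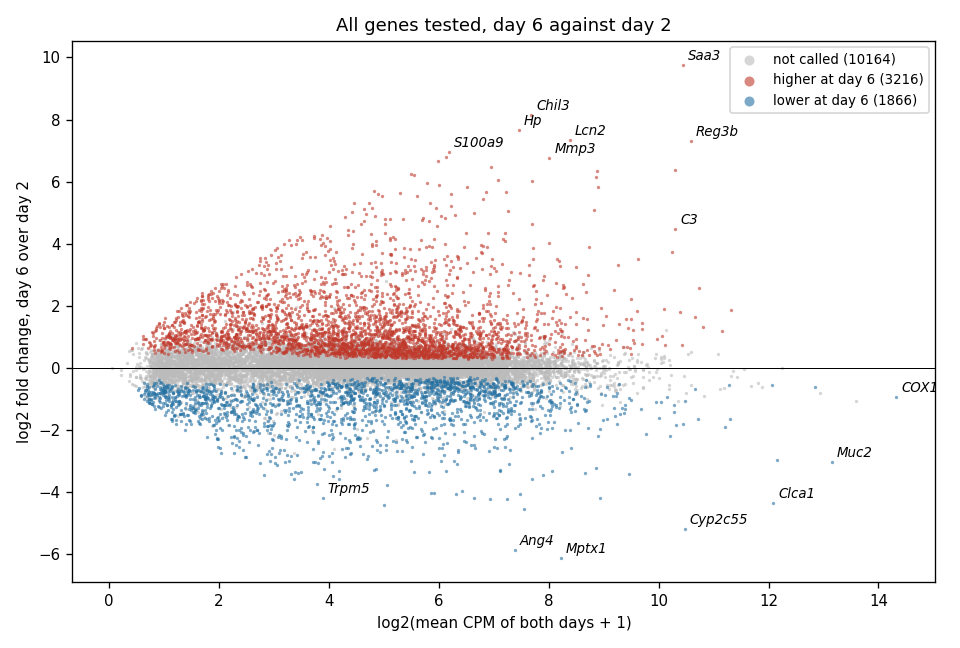
Log2 fold change of day 6 over day 2 (vertical) against mean level of both days as log2(CPM + 1) (horizontal), 1 point per gene, with genes past the threshold in red (3216 higher) and blue (1866 lower). Rises reach 9.75 with Saa3, while the largest falls, Mptx1 at -6.11 and Ang4 at -5.86, are smaller.

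Genes of the acute phase led the rises. Saa3, a serum amyloid A made by epithelium and macrophages, had 3461, 4148 and 758 CPM in the day 6 libraries, against 1.71, 1.98 and 1.12 CPM in the day 2 libraries. Every day 6 library was far above every day 2 library, and replicate 3 was the lowest of day 6 (log2 fold change 9.75 ± 0.64, adjusted p = 1.10e-06). Hp, the haemoglobin scavenger haptoglobin, had 426, 472 and 144 CPM at day 6, against 1.03, 0.385 and 0.225 CPM at day 2 (log2 fold change 7.67 ± 0.43, adjusted p = 3.64e-07). The serpin Serpina3n, a protease inhibitor, had 2467, 4123 and 905 CPM in the day 6 libraries, against 29.8, 19.7 and 25.2 CPM in the day 2 libraries (log2 fold change 6.36 ± 0.44, adjusted p = 1.42e-06), with the day 6 libraries in the same order as for Saa3. Its neighbours Serpina3m (6.25 ± 0.38, adjusted p = 5.92e-07) and Serpina3g (4.93 ± 0.22, adjusted p = 1.26e-07) lie beside it on chromosome 12 (from Serpina3g at chr12:104236245-104241939 to Serpina3n at chr12:104406729-104414329 in GRCm38) and are close copies, so reads may be shared between them. Of 15 acute phase genes tested, 14 rose, against 21.1% of all genes, and 0 fell, with a median change of 3.88 against 0.12 over all genes on the log2 scale. C3, the central protein of complement, had 2306, 3797 and 1146 CPM at day 6, against 138, 42.6 and 146 CPM at day 2 (log2 fold change 4.49 ± 0.53, adjusted p = 7.27e-05). Of 18 complement genes 17 rose (median 2.34), among them the classical pathway genes C1ra (3.28) and C4b (3.27).

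Antimicrobial proteins moved in both directions. Of 25 tested, 12 rose and 6 fell. Lcn2, lipocalin 2, which binds bacterial siderophores, had 821, 951 and 212 CPM in the day 6 libraries, against 2.14, 2.34 and 2.86 CPM in the day 2 libraries (log2 fold change 7.33 ± 0.45, adjusted p = 6.61e-07). The lectin Reg3b, which binds bacteria, had 4986, 766 and 3434 CPM at day 6, against 10.2, 45.5 and 5.48 CPM at day 2 (log2 fold change 7.30 ± 1.11, adjusted p = 0.000467). It was lowest at day 6 in replicate 2, unlike Saa3 and Lcn2, and the libraries of the days did not overlap. Its close relative Reg3g had 1710, 152 and 945 CPM at day 6, against 7.52, 25.1 and 5.28 CPM at day 2 (5.81 ± 1.05, adjusted p = 0.00147) and may share reads with it. The falls were led by proteins of the secretory epithelium. Mptx1, a pentraxin, had 4.71, 3.21 and 1.99 CPM in the day 6 libraries, against 976, 30.8 and 764 CPM in the day 2 libraries (log2 fold change -6.11 ± 1.22, adjusted p = 0.00266). Day 2 replicate 2 was far below the other day 2 libraries but still above every library of day 6. Ang4, an antimicrobial ribonuclease, had 5.07, 4.54 and 3.44 CPM at day 6, against 504, 204 and 278 CPM at day 2 (log2 fold change -5.86 ± 0.45, adjusted p = 3.21e-06), again without overlap. Pigr, the receptor that carries IgA across the epithelium, averaged 1111 ± 680 CPM at day 6, against 3601 ± 51.7 CPM at day 2 (-1.90 ± 0.39, adjusted p = 0.00341), and Itln1, a lectin that binds microbial sugars, averaged 0.247 ± 0.0794 CPM at day 6, against 8.87 ± 4.96 CPM at day 2 (-2.88 ± 0.66, adjusted p = 0.00631), though with a pseudocount of 5 CPM Itln1 no longer passed (adjusted p = 0.0917).

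**Figure D2:**
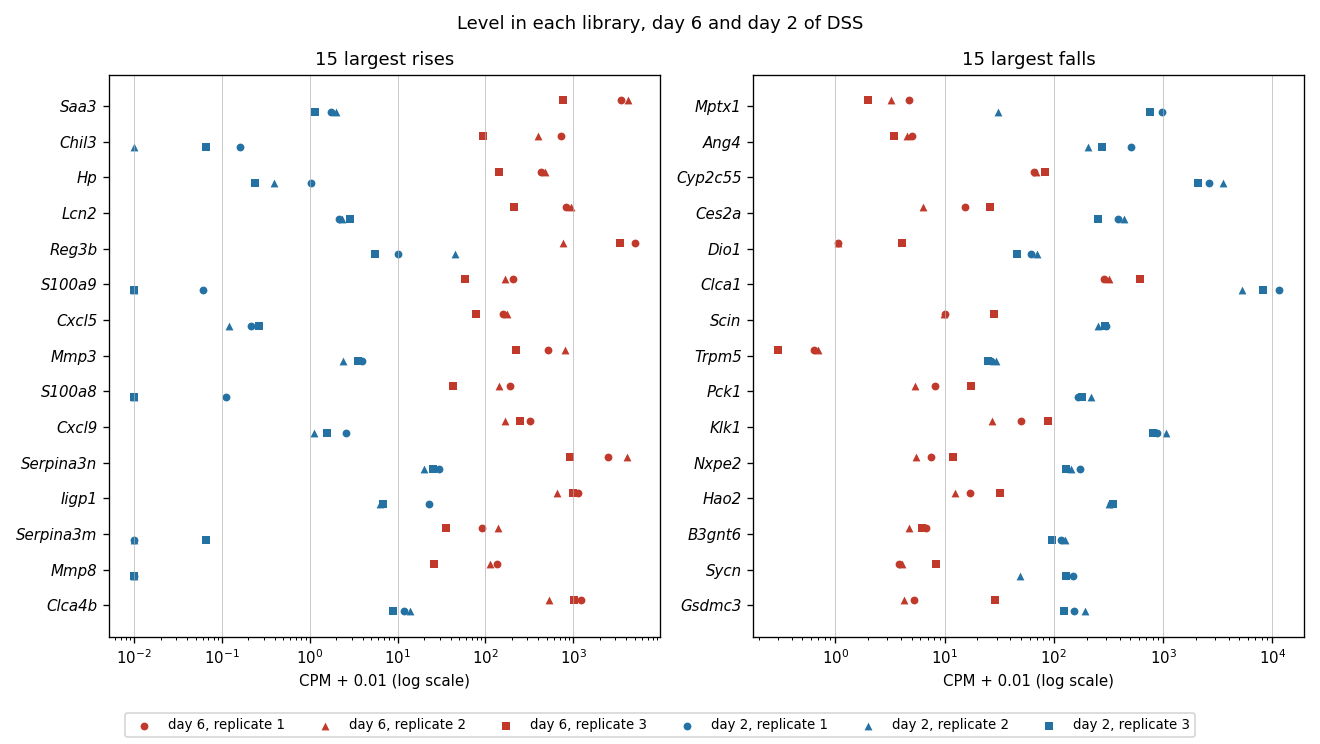
CPM + 0.01 on a log axis in each library for the 15 largest rises (left) and 15 largest falls (right), day 6 in red above day 2 in blue, with 1 symbol per replicate. For each of the 30 genes all day 6 libraries lie to one side of all day 2 libraries, and points at the left edge of the left panel are libraries with no read.

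Most genes of neutrophils were higher at day 6, several of them with almost no reads at day 2. S100a9, a subunit of the neutrophil protein calprotectin, had 208, 166 and 58.1 CPM in the day 6 libraries, against 0.0503, 0 and 0 CPM in the day 2 libraries. Only 2 reads were counted for it at day 2 in all (log2 fold change 6.97 ± 0.37, adjusted p = 2.83e-07). Its partner S100a8 had 188, 141 and 42.3 CPM at day 6, against 0.101, 0 and 0 CPM at day 2 (6.67 ± 0.43, adjusted p = 9.78e-07). Mmp8, the neutrophil collagenase, had 136, 111 and 26.2 CPM at day 6, against 0, 0 and 0 CPM at day 2, which is at least 3394-fold higher against a floor of 3 reads over the 3 day 2 libraries. Cxcr2, the chemokine receptor of neutrophils, had 24.5, 15.8 and 8.1 CPM at day 6, against 0, 0 and 0 CPM at day 2 (at least 601-fold higher). In S100a9, Mmp8 and Cxcr2, day 6 replicate 3 was the lowest library and replicate 1 the highest. Of 20 neutrophil genes tested 19 rose, each of them by more than 2-fold, against 4.01% of all genes, and Cd177 was lower (108, 48.8 and 114 CPM at day 6, against 299, 222 and 265 CPM at day 2, -1.61 ± 0.27, adjusted p = 0.000946). The list held 24 genes before the filter. Members without reads at day 2, such as Mmp8 and Cxcr2, passed the filter through other days and could only be called higher. The mean level of the list, as log2(CPM + 1), was 5.72, 5.47 and 4.27 in the day 6 libraries, against 1.11, 1.01 and 1.04 in the day 2 libraries.

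Signals that draw and feed neutrophils rose with them. Cxcl5, a ligand of Cxcr2, had 157, 176 and 78.5 CPM in the day 6 libraries, against 0.201, 0.11 and 0.253 CPM in the day 2 libraries (log2 fold change 6.78 ± 0.25, adjusted p = 4.93e-08). Cxcl1, another ligand of the same receptor, had 81.5, 55.1 and 22.4 CPM at day 6, against 0.352, 0.66 and 0.112 CPM at day 2 (5.14 ± 0.37, adjusted p = 2.14e-06). The cytokine Csf3, which drives the making of neutrophils, had 51.3, 52.8 and 7.81 CPM at day 6, against 0.0251, 0 and 0 CPM at day 2, with 1 read in all at day 2 (4.85 ± 0.54, adjusted p = 4.90e-05). Each of them was lowest at day 6 in replicate 3. Of 25 chemokines 19 rose and 3 fell. Ccl2, which draws monocytes, had 136, 76.5 and 71.5 CPM at day 6, against 1.03, 0.989 and 0.899 CPM at day 2 (5.54 ± 0.21, adjusted p = 4.93e-08), and the falls included Ccl28, a mucosal chemokine for IgA plasma cells (-1.69), and Ccl6 (-1.09). Neither fall passed with only days 2 and 6 in the fit (adjusted p = 0.0738 and 0.0517), and Ccl6 also missed without day 2 replicate 2 (adjusted p = 0.0512), where 1 of the 3 falls was left.

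Of 28 cytokines listed, 16 could be tested, and of these 14 rose and 0 fell. Several of the 14, such as Il6 and Csf3, had 0 or almost 0 CPM at day 2. They passed the filter through other days and could only be called higher. Il1b, a main fever and inflammation cytokine, had 184, 111 and 81.6 CPM in the day 6 libraries, against 0.729, 1.02 and 1.35 CPM in the day 2 libraries (log2 fold change 5.89 ± 0.28, adjusted p = 1.53e-07). Il11, made by fibroblasts in injured gut, had 29.9, 32.6 and 18.1 CPM at day 6, against 0.629, 0.577 and 0.0562 CPM at day 2 (4.28 ± 0.38, adjusted p = 8.37e-06). Il6, a driver of the acute phase response, had 16.3, 12 and 6.09 CPM at day 6, against 0, 0 and 0 CPM at day 2 (at least 428-fold higher). Il33, an alarm cytokine, averaged 92 ± 42.4 CPM at day 6, against 5.14 ± 1.41 CPM at day 2 (3.84 ± 0.31, adjusted p = 4.56e-06). Tnf, the classical inflammatory cytokine, had 13.8, 6.63 and 15.4 CPM at day 6, against 3.67, 8.19 and 3.62 CPM at day 2, so that 1 library of day 2 lay above 1 of day 6, and it did not pass (log2 fold change 1.07 ± 0.41, adjusted p = 0.0677). Tnf passed without day 6 replicate 2 (1.42, adjusted p = 0.0174) and without day 2 replicate 2 (1.40, adjusted p = 0.0381). Ifng, the lymphocyte interferon, had 3.02, 1.04 and 13.6 CPM at day 6, against 0.101, 0 and 0 CPM at day 2 (2.26 ± 0.51, adjusted p = 0.00578), with a wide spread at day 6 set by replicate 3. With only days 2 and 6 in the fit its adjusted p was 0.0511.

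Among 28 receptors for cytokines and chemokines 23 rose and 2 fell. Il1r2, a decoy receptor for interleukin 1, had 98.5, 94.1 and 35.5 CPM at day 6, against 0.277, 0.605 and 0.421 CPM at day 2 (5.62 ± 0.32, adjusted p = 4.24e-07), and Csf3r, the receptor for Csf3, had 61.8, 73 and 48.4 CPM at day 6, against 2.24, 1.92 and 1.88 CPM at day 2 (4.35 ± 0.19, adjusted p = 1.07e-07). The falls were the epithelial interleukin 22 receptor Il22ra1 (32.4, 32 and 64.7 CPM at day 6, against 91.3, 86.3 and 87.3 CPM at day 2, -1.10 ± 0.24, adjusted p = 0.00452) and the soluble decoy Il22ra2 (-1.51, adjusted p = 0.00147). Of 20 genes that feed back on NF-kB and STAT3, 17 rose and 0 fell, led by Socs3, an inhibitor of cytokine signalling (306, 344 and 185 CPM at day 6, against 16.5, 13.3 and 15.1 CPM at day 2, 4.09 ± 0.29, adjusted p = 1.93e-06), and Tnfaip2 (3.72).

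Monocyte and macrophage genes rose almost throughout, 24 of 25, with 0 lower. Chil3, a chitinase-like protein of activated mouse macrophages, had 731, 399 and 93.8 CPM in the day 6 libraries, against 0.151, 0 and 0.0562 CPM in the day 2 libraries (log2 fold change 8.15 ± 0.57, adjusted p = 1.56e-06). Nos2, the inducible nitric oxide synthase, had 235, 96.2 and 324 CPM at day 6, against 3.95, 2.61 and 4.24 CPM at day 2 (5.43 ± 0.50, adjusted p = 1.19e-05) and was lowest at day 6 in replicate 2. The receptors Fcgr4, for IgG (133, 136 and 90.2 CPM at day 6, against 3.22, 2.28 and 1.77 CPM at day 2, 5.14 ± 0.22, adjusted p = 1.07e-07), and Clec4e, for mycobacterial and damage ligands (5.32), followed the same direction. Marco, a scavenger receptor, had 26.3, 26.7 and 4.31 CPM at day 6, against 0, 0 and 0 CPM at day 2 (at least 711-fold higher). Of 28 innate sensors and inflammasome genes 16 rose and 4 fell. The inflammasome sensor Nlrp3 had 26.6, 20.5 and 13.1 CPM at day 6, against 0.629, 0.934 and 0.73 CPM at day 2 (3.53 ± 0.26, adjusted p = 2.25e-06). The falls were led by gasdermin C genes of the epithelium, Gsdmc3 (5.22, 4.28 and 28.8 CPM at day 6, against 154, 194 and 125 CPM at day 2, -3.97 ± 0.57, adjusted p = 0.000306) and Gsdmc4 (38.5, 47.1 and 167 CPM at day 6, against 808, 684 and 678 CPM at day 2, -3.40 ± 0.52, adjusted p = 0.000463), which are near-identical neighbours on chromosome 15 and may share reads. The falls of this list numbered 7 without day 6 replicate 3. Of 28 genes for making or removing oxidants 12 rose and 2 fell. The phagocyte oxidase subunits Cybb (127 ± 18.1 CPM at day 6, against 11.9 ± 2.36 CPM at day 2, 3.31 ± 0.22, adjusted p = 1.06e-06) and Ncf1 (3.09) rose, and Cat, catalase, fell (24.6 ± 4.03 CPM at day 6, against 48.5 ± 10.1 CPM at day 2, -0.94 ± 0.17, adjusted p = 0.00118).

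Interferon-induced genes rose as a block, 33 of 38 with 0 lower and a median of 3.07. Cxcl9, a chemokine induced by interferon gamma, had 322, 167 and 245 CPM in the day 6 libraries, against 2.59, 1.1 and 1.57 CPM in the day 2 libraries (log2 fold change 6.47 ± 0.39, adjusted p = 5.65e-07). Iigp1, a GTPase that attacks vacuoles of intracellular microbes, had 1134, 645 and 997 CPM at day 6, against 22.6, 6.35 and 6.8 CPM at day 2 (6.35 ± 0.46, adjusted p = 2.16e-06). Ido1, which breaks down tryptophan, had 416, 192 and 623 CPM at day 6, against 6.94, 3.98 and 3.73 CPM at day 2 (6.01 ± 0.40, adjusted p = 1.13e-06). Gbp5, a guanylate-binding protein whose promoter is printed above, had 368, 276 and 237 CPM at day 6, against 6.26, 3.16 and 5.03 CPM at day 2 (5.68 ± 0.24, adjusted p = 1.02e-07). Cxcl10, the other gene of this group with a printed promoter, had 198, 69.5 and 168 CPM at day 6, against 2.06, 1.57 and 1.57 CPM at day 2 (5.61 ± 0.33, adjusted p = 5.37e-07). Apart from Gbp5, these genes were lowest at day 6 in replicate 2. The 5 list members that did not pass were the antiviral genes Mx1 (0.16, adjusted p = 0.737), Rsad2 (0.45, adjusted p = 0.46), Oas1a (0.69, adjusted p = 0.181) and Oasl1 (0.93, adjusted p = 0.0996) and their regulator Irf7 (0.77, adjusted p = 0.2), which are named because they are few and were singled out after their values were seen.

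All 19 antigen presentation genes tested rose, 12 of them by more than 2-fold. B2m, the light chain of every MHC class I molecule, had 2729, 3009 and 3020 CPM in the day 6 libraries, against 598, 474 and 419 CPM in the day 2 libraries (log2 fold change 2.57 ± 0.20, adjusted p = 3.47e-06). The 3 libraries of day 6 were within a narrow range and far above day 2. The class I gene H2-Q7 had 204, 268 and 210 CPM at day 6, against 12.2, 8.82 and 9.35 CPM at day 2 (4.36 ± 0.17, adjusted p = 4.93e-08), and H2 genes resemble each other closely enough that reads may be shared. Nlrc5, the transcriptional activator of class I genes, had 117, 100 and 111 CPM at day 6, against 8.83, 4.7 and 6.21 CPM at day 2 (3.90 ± 0.29, adjusted p = 2.58e-06). The peptide transporter Tap1 had 409, 253 and 488 CPM at day 6, against 45.6, 26.5 and 26.1 CPM at day 2 (3.50 ± 0.26, adjusted p = 2.54e-06). Of 22 T and NK cell genes 21 rose and 0 fell, led by the granzymes Gzmb (38, 67.7 and 47.3 CPM at day 6, against 1.41, 2.42 and 1.04 CPM at day 2, 4.30 ± 0.25, adjusted p = 5.08e-07) and Gzma (2.95), which kill target cells. Replicate 2 was the highest day 6 library for both. Of 13 dendritic cell genes 8 rose and 2 fell, with Ccr7, which guides these cells to lymph nodes, at 2.11 and Cd209a at -0.92. Without day 2 replicate 1, and in 4 other fits without 1 library, 1 of the falls was lost, that of Cd83 (-0.84). Of 10 B cell genes 6 rose and 1 fell. Ms4a1, which marks B cells, rose and was still low (1.68 ± 0.432 CPM at day 6, against 0.235 ± 0.169 CPM at day 2, 1.11 ± 0.18, adjusted p = 0.000574), and the fall was Spib (-1.48). Of 14 plasma cell genes 2 rose and 2 fell, against 21.1% and 12.2% of all genes. Jchain, which joins IgA molecules, had 60.7, 258 and 78.9 CPM at day 6, against 466, 273 and 385 CPM at day 2 (-1.76 ± 0.45, adjusted p = 0.0107), with replicate 2 the highest at day 6. Jchain did not pass without day 6 replicate 1 (adjusted p = 0.0504), which left 1 plasma cell gene lower, and 6 were lower without day 6 replicate 2.

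**Figure D3:**
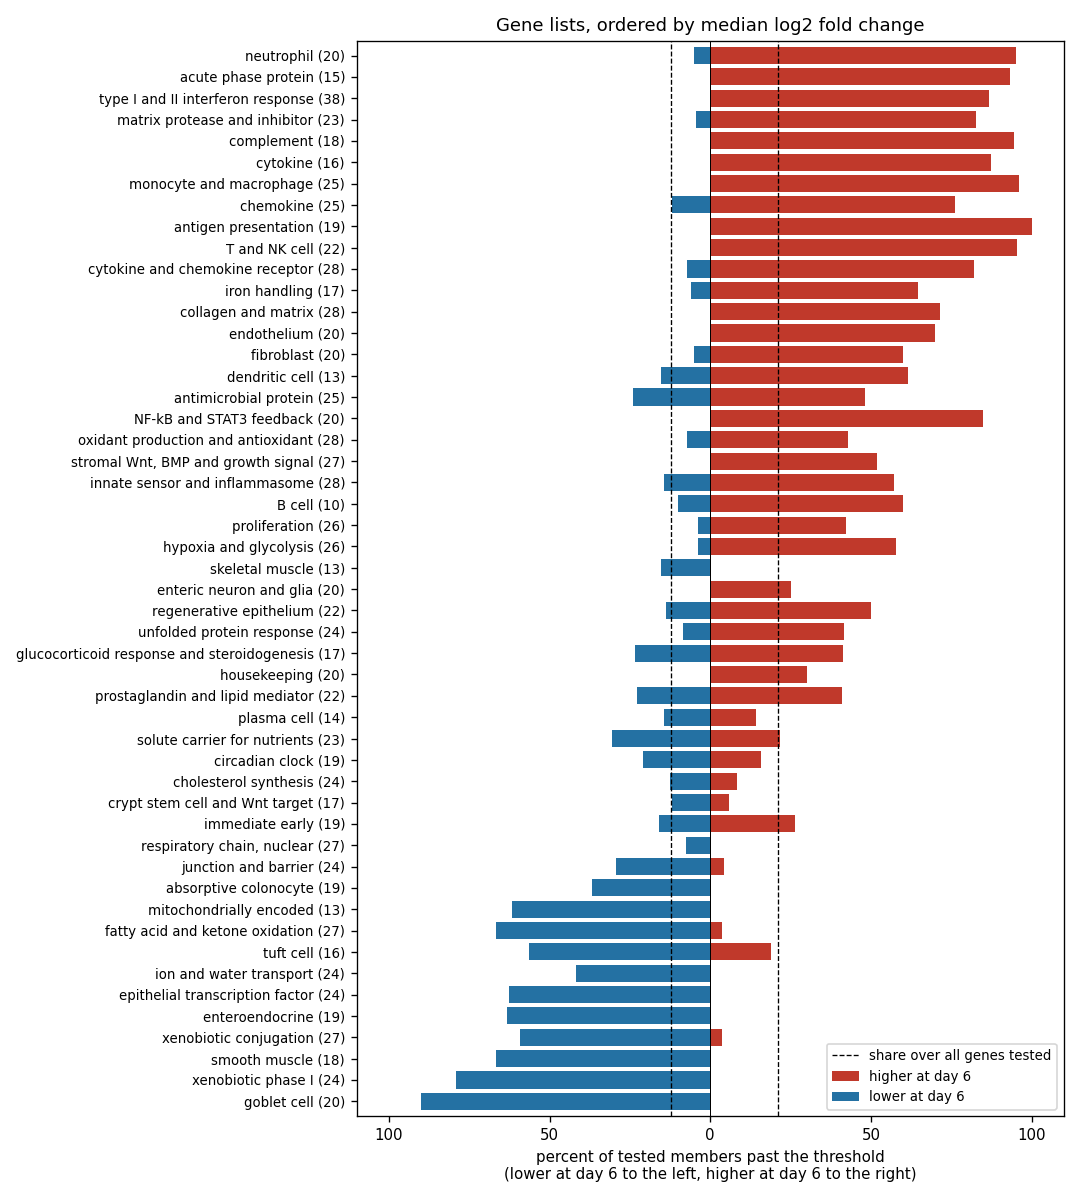
Percent of the tested members of each gene list past the threshold (number tested in parentheses), higher at day 6 to the right in red and lower to the left in blue, with dashed lines at the shares over all genes tested (21.1% and 12.2%), for lists with at least 10 tested members, ordered by median log2 fold change. Lists of neutrophils, acute phase proteins and interferon response stand at the top, and goblet cells and xenobiotic phase I enzymes at the bottom.

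The vessel wall, fibroblasts and matrix formed the next group of rises. Of 20 endothelial genes 14 rose and 0 fell. Selp, P-selectin, which catches leukocytes on the vessel wall, had 79, 132 and 24.9 CPM in the day 6 libraries, against 1.21, 1.65 and 1.21 CPM in the day 2 libraries (log2 fold change 4.79 ± 0.46, adjusted p = 1.56e-05). Icam1, a second adhesion molecule for leukocytes, had 167, 160 and 119 CPM at day 6, against 13.5, 11.6 and 10.9 CPM at day 2 (3.52 ± 0.16, adjusted p = 1.07e-07), with day 6 libraries close together, while Selp was lowest in replicate 3. Of 20 fibroblast genes 12 rose and 1, Gli1, was lower. Gli1, a target of hedgehog signals (-0.71, adjusted p = 0.0263), did not pass without day 6 replicate 1 or without day 2 replicate 1 or 2, with adjusted p of 0.0821 to 0.117. Of 28 collagen and matrix genes 20 rose and 0 fell. Col3a1, a fibrillar collagen, had 3929, 5679 and 2581 CPM at day 6, against 1163, 868 and 1149 CPM at day 2 (1.88 ± 0.30, adjusted p = 0.00063). Lox, which crosslinks collagen, had 182, 277 and 76.4 CPM at day 6, against 17.7, 16 and 19.2 CPM at day 2 (3.09 ± 0.43, adjusted p = 0.000262). The number of matrix genes that were lower was 2 without day 6 replicate 2.

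Proteases that cut matrix rose as well. Of 23 matrix proteases and inhibitors 19 rose and 1 fell, with a median of 2.50. Mmp3, stromelysin 1, had 512, 795 and 224 CPM in the day 6 libraries, against 3.87, 2.39 and 3.48 CPM in the day 2 libraries (log2 fold change 6.75 ± 0.35, adjusted p = 2.79e-07). Mmp10 (181, 256 and 96.3 CPM at day 6, against 2.26, 1.84 and 1.6 CPM at day 2, 5.84 ± 0.29, adjusted p = 1.98e-07) and Mmp13, a collagenase (250, 292 and 135 CPM at day 6, against 3.07, 3.66 and 2.92 CPM at day 2, 5.68 ± 0.26, adjusted p = 1.26e-07), rose beside it. These 3 genes and Mmp8 lie together on chromosome 9, from Mmp13 at chr9:7272514-7283331 to Mmp8 at chr9:7558456-7568485 in GRCm38. In Mmp3, Mmp10 and Mmp13 replicate 2 was the highest day 6 library and replicate 3 the lowest. The fall was Mmp15, a membrane-bound protease (72.1, 104 and 121 CPM at day 6, against 321, 313 and 312 CPM at day 2, -1.69 ± 0.19, adjusted p = 5.98e-05). Of 27 stromal Wnt, BMP and growth signals 14 rose and 0 fell. Grem1, which blocks BMP around crypts, had 417, 938 and 256 CPM at day 6, against 37.6, 32.9 and 58.5 CPM at day 2 (3.45 ± 0.41, adjusted p = 8.39e-05). Rspo3, which strengthens Wnt signals to stem cells, had 46.2, 80.3 and 24.6 CPM at day 6, against 6.31, 6.4 and 6.82 CPM at day 2 (2.62 ± 0.34, adjusted p = 0.000158).

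Genes of smooth muscle fell, 12 of 18 with 0 higher. Actg2, enteric smooth muscle actin, had 429, 570 and 295 CPM in the day 6 libraries, against 2246, 1697 and 1838 CPM in the day 2 libraries (log2 fold change -2.20 ± 0.25, adjusted p = 6.18e-05). Myh11, smooth muscle myosin, had 1129, 2315 and 629 CPM at day 6, against 3497, 3517 and 4109 CPM at day 2 (-1.65 ± 0.39, adjusted p = 0.00734), and its day 6 values ranged widely, with replicate 2 the highest and replicate 3 the lowest. Acta2, an actin that activated fibroblasts share, did not pass (1021, 1584 and 651 CPM at day 6, against 2115, 1507 and 1791 CPM at day 2, -0.81 ± 0.31, adjusted p = 0.0656), though it did without day 6 replicate 2 (-1.13, adjusted p = 0.00666), with median-of-ratios scaling (adjusted p = 0.0292), in edgeR (adjusted p = 0.0429) and in DESeq2 (adjusted p = 0.00957). Without day 6 replicate 3, 9 smooth muscle genes were lower and 2 higher. Of 20 genes of enteric neurons and glia 5 rose, a share near the 21.1% of all genes, and 0 fell. Gfap, a filament of glia, had 48.7, 90.5 and 27.8 CPM at day 6, against 9.28, 8.16 and 8.68 CPM at day 2 (2.39 ± 0.33, adjusted p = 0.000232), highest in replicate 2. The level of that list was 4.67, 5.58 and 3.77 in the day 6 libraries, against 3.82, 3.87 and 3.84 in the day 2 libraries, so replicate 3 of day 6 lay just below the day 2 libraries and the other two above them. Its rises numbered 12 without day 6 replicate 3 and 3 without day 2 replicate 2.

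**Figure D4:**
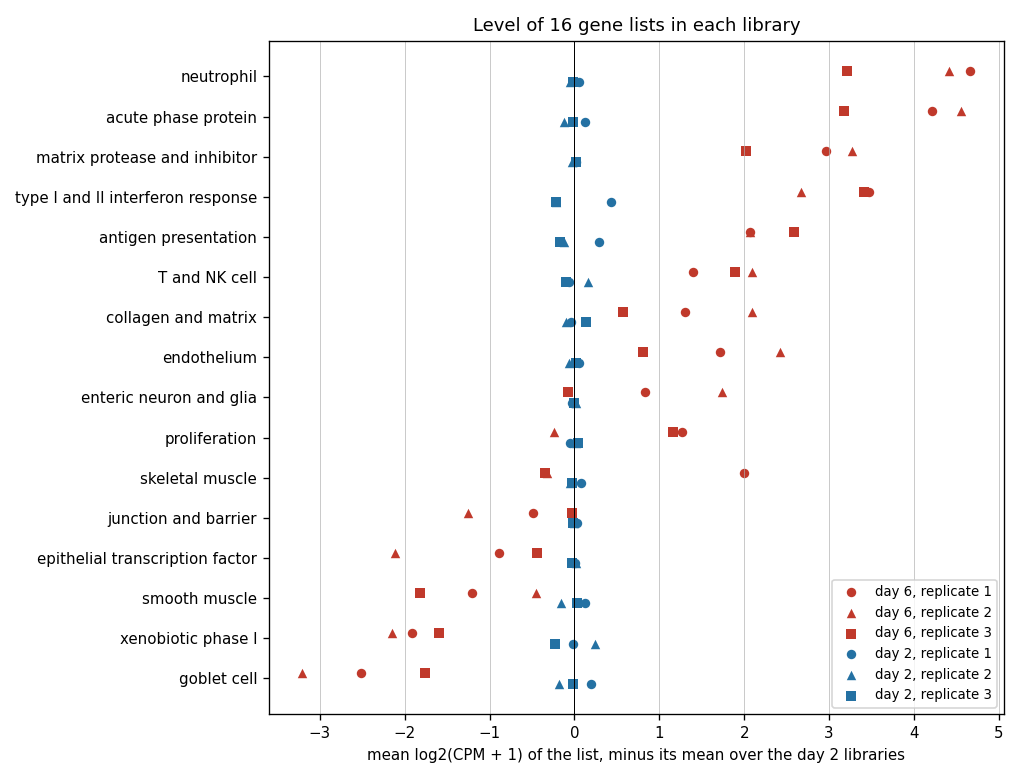
Mean log2(CPM + 1) of 16 gene lists in each library, minus the mean of the same list over the day 2 libraries, with day 6 in red above day 2 in blue and 1 symbol per replicate. Day 2 libraries lie near zero, and among day 6 libraries replicate 2 is the highest for collagen, endothelium and neurons and the lowest for goblet cells, junctions and epithelial transcription factors.

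Genes of the secretory epithelium were lower at day 6. Of 20 goblet cell genes 18 fell, against 12.2% of all genes, 13 of them by more than 2-fold, and 0 rose, with a median of -2.37. Muc2, the mucin of the mucus gel, had 1672, 1492 and 3024 CPM in the day 6 libraries, against 15177, 18636 and 14419 CPM in the day 2 libraries (log2 fold change -3.03 ± 0.30, adjusted p = 2.14e-05). No day 6 library came near the lowest day 2 library. Clca1, a protease that works on the mucus, had 287, 318 and 610 CPM at day 6, against 11448, 5256 and 8172 CPM at day 2 (-4.37 ± 0.45, adjusted p = 2.59e-05). Fcgbp, which binds to Muc2, had 766, 618 and 1973 CPM at day 6, against 9288, 5171 and 9633 CPM at day 2 (-2.98 ± 0.56, adjusted p = 0.00182). B3gnt6, which builds the core 3 sugars of mucin, had 6.8, 4.67 and 6.25 CPM at day 6, against 116, 125 and 95.6 CPM at day 2 (-4.04 ± 0.23, adjusted p = 4.15e-07). Clca4b, a relative of Clca1 in the same gene cluster of chromosome 3, moved the other way, with 1216, 531 and 1012 CPM in the day 6 libraries, against 11.8, 13.6 and 8.93 CPM in the day 2 libraries (log2 fold change 6.14 ± 0.58, adjusted p = 1.42e-05). Clca1 lies at chr3:145003817-145032776 and Clca4b at chr3:144910921-144932529, both on the minus strand. For Clca4b replicate 2 was the lowest day 6 library.

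Genes of rarer epithelial cell types were lower as well. Of 19 enteroendocrine genes 12 fell and 0 rose. Chga, a granule protein of these cells, had 19.8, 18.8 and 20.4 CPM at day 6, against 106, 139 and 97 CPM at day 2 (-2.46 ± 0.18, adjusted p = 2.24e-06). Gcg, the gene of GLP-1, had 11.5, 7.7 and 20.3 CPM at day 6, against 86.9, 63.7 and 78.3 CPM at day 2 (-2.54 ± 0.27, adjusted p = 3.42e-05). Trpm5, the cation channel of tuft cells, had 0.634, 0.679 and 0.291 CPM in the day 6 libraries, against 26.8, 29.3 and 25 CPM in the day 2 libraries (log2 fold change -4.20 ± 0.18, adjusted p = 1.02e-07). Its day 6 libraries were all under 1 CPM and far below all day 2 libraries. Pou2f3, the master regulator of tuft cells, had 0.244, 0.522 and 0.106 CPM at day 6, against 3.85, 3.57 and 2.27 CPM at day 2 (-1.71 ± 0.22, adjusted p = 0.000124). Of 16 tuft cell genes 9 fell and 3 rose, and the rises included Alox5ap (2.76) and Plcg2 (0.82), which leukocytes express as well. The summed level of the tuft list, 191 to 401 CPM at day 6 and 252 to 273 CPM at day 2, did not separate the days.

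Absorptive colonocyte genes moved less. Of 19 tested 7 fell and 0 rose. Aqp8, a water channel of surface colonocytes, had 38.9, 48.7 and 138 CPM at day 6, against 487, 169 and 352 CPM at day 2 (-2.25 ± 0.52, adjusted p = 0.0067). Guca2a, the hormone guanylin, had 252, 262 and 391 CPM at day 6, against 970, 803 and 866 CPM at day 2 (-1.56 ± 0.23, adjusted p = 0.000379). Car1, a carbonic anhydrase of the colon surface, did not pass (1271, 1111 and 1113 CPM at day 6, against 1755, 4216 and 1412 CPM at day 2, -0.91 ± 0.41, adjusted p = 0.115), though it did in DESeq2 (-1.20, adjusted p = 0.0122) and with array weights (-0.80, adjusted p = 0.0199). Nor did Epcam, an adhesion protein of all epithelial cells (990, 523 and 1471 CPM at day 6, against 1449, 1301 and 1270 CPM at day 2, -0.55 ± 0.30, adjusted p = 0.193). Epcam did pass without day 6 replicate 3 (-0.89, adjusted p = 0.0158) and with array weights (-0.405, adjusted p = 0.000631). Slc26a3, the chloride exchanger, passed narrowly (-0.84 ± 0.29, adjusted p = 0.0474) with overlapping libraries, and did not pass in 4 of the 6 fits without 1 library (adjusted p of 0.109 to 0.164). Of 24 genes for ion and water transport 10 fell and 0 rose, among them the sodium channel subunits Scnn1a (30.1, 23.1 and 72.3 CPM at day 6, against 140, 103 and 156 CPM at day 2, -1.80 ± 0.33, adjusted p = 0.0017) and Scnn1b (-1.89). Of 24 transcription factors of the epithelium 15 fell and 0 rose. Spdef, which directs goblet cells (35.4, 9.76 and 54.6 CPM at day 6, against 189, 175 and 136 CPM at day 2, -2.57 ± 0.45, adjusted p = 0.00113), and Atoh1, which starts the secretory lineage (22.5, 8.22 and 34.3 CPM at day 6, against 90, 88.1 and 98.7 CPM at day 2, -2.24 ± 0.37, adjusted p = 0.000837), were both lowest in replicate 2.

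Of 24 junction genes 7 fell and 1 rose. Ocln, a tight junction protein, had 46.3, 24.1 and 56.3 CPM at day 6, against 119, 123 and 113 CPM at day 2 (-1.55 ± 0.25, adjusted p = 0.000741). Cldn8, a sealing claudin, had 33.6, 18.7 and 27.8 CPM at day 6, against 57.7, 53.3 and 75.7 CPM at day 2 (-1.21 ± 0.21, adjusted p = 0.00123). Cldn1, another claudin, was the rise (5.29, 10.3 and 5.48 CPM at day 6, against 1.99, 0.852 and 2.13 CPM at day 2, 1.58 ± 0.26, adjusted p = 0.000777). The falls numbered 17 without day 6 replicate 3 and 4 without day 2 replicate 1. The level of that list was 7.01, 6.24 and 7.46 in the day 6 libraries, against 7.52, 7.48 and 7.47 in the day 2 libraries, so replicate 3 of day 6 was level with the lowest day 2 library and replicate 2 far below.

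Markers of injured and regenerating epithelium rose in part, 11 of 22 with 3 lower. Ly6a, known as Sca-1, had 1293, 807 and 1222 CPM in the day 6 libraries, against 127, 75 and 133 CPM in the day 2 libraries (log2 fold change 3.31 ± 0.26, adjusted p = 3.27e-06). Ereg, a ligand of the EGF receptor, had 242, 395 and 66.2 CPM at day 6, against 15.8, 17.9 and 23.7 CPM at day 2 (3.23 ± 0.54, adjusted p = 0.000829). Cldn4 (19.2, 18.3 and 34.1 CPM at day 6, against 75.9, 68.2 and 62.2 CPM at day 2, -1.54 ± 0.25, adjusted p = 0.00074) and Krt7 (-1.40) were lower, though Krt7 did not pass with only days 2 and 6 in the fit (adjusted p = 0.0732). Several of these genes, Ly6a among them, are also expressed by stromal or immune cells. The rises numbered 7 without day 2 replicate 2, and the falls 5 without day 6 replicate 3. Of 17 genes of crypt stem cells and Wnt targets 1 rose and 2 fell, against 21.1% and 12.2% of all genes. Lgr5, the stem cell receptor for R-spondins, had 1.76, 0.365 and 0.529 CPM at day 6, against 2.59, 3.19 and 1.26 CPM at day 2 (-0.85 ± 0.32, adjusted p = 0.0585), and passed without day 6 replicate 1 (-1.17, adjusted p = 0.0193) and without day 2 replicate 3 (-1.11, adjusted p = 0.0311), with median-of-ratios scaling (adjusted p = 0.0389) or quantile normalization (adjusted p = 0.0393), and in DESeq2 (adjusted p = 0.0169). Smoc2 was the rise (70, 130 and 34.4 CPM at day 6, against 21.6, 14.8 and 19.6 CPM at day 2, 1.82 ± 0.42, adjusted p = 0.0063). In this list 3 genes rose without day 6 replicate 2, and 4 fell without day 6 replicate 3. Olfm4, a further stem cell marker, was below the level needed for testing.

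Of 26 proliferation genes tested 11 rose and 1 fell. The rises were genes of DNA synthesis and its onset, all 6 subunits of the Mcm2 to Mcm7 helicase, Pcna, Rrm1, Rrm2, Ccne1 and E2f1. Mcm4 had 56.7, 34 and 50.7 CPM in the day 6 libraries, against 16.1, 15.5 and 16 CPM in the day 2 libraries (log2 fold change 1.48 ± 0.16, adjusted p = 4.05e-05), and Rrm2, which makes deoxynucleotides, had 63.3, 16.4 and 48.9 CPM at day 6, against 9.91, 10.8 and 8.96 CPM at day 2 (1.82 ± 0.37, adjusted p = 0.00297). Other genes of DNA synthesis and the S-phase cyclin Ccne2 did not pass, with Tyms at 0.55 ± 0.35, adjusted p = 0.264, Tk1 at 0.38 ± 0.33, adjusted p = 0.419 and Ccne2 at 0.51 ± 0.21, adjusted p = 0.0789. No mitotic gene of the list rose in the main fit, which held all libraries. Top2a, a topoisomerase of dividing cells, had 223, 52.7 and 199 CPM at day 6, against 61.3, 77.1 and 85.6 CPM at day 2 (0.84 ± 0.43, adjusted p = 0.16), and Ccnb1, a cyclin of mitosis, had 41.1, 7.81 and 45.5 CPM at day 6, against 14.3, 17.5 and 22.7 CPM at day 2 (0.45 ± 0.50, adjusted p = 0.522). For both, replicate 2 of day 6 lay below every day 2 library and replicates 1 and 3 lay above. Mki67, the common proliferation marker, had 188, 53.4 and 164 CPM at day 6, against 77.1, 125 and 164 CPM at day 2 (log2 fold change 0.02 ± 0.45, adjusted p = 0.977). Plk1, a mitotic kinase, was the fall (70.9, 20 and 95 CPM at day 6, against 140, 175 and 161 CPM at day 2, -1.60 ± 0.42, adjusted p = 0.0132). The level of the list was 5.65, 4.14 and 5.54 in the day 6 libraries, against 4.32, 4.39 and 4.42 in the day 2 libraries. Without day 6 replicate 2, 24 of the 26 rose, among them Ccnb1 by 1.23 (adjusted p = 0.000799), while Plk1 stayed lower and Mki67 again did not pass, with a log2 fold change of 0.59 (adjusted p = 0.193). With array weights and all libraries, Mki67 did pass (0.53, adjusted p = 0.0112). The rises numbered 6 without day 6 replicate 1 and 7 without day 2 replicate 3. With only days 2 and 6 in the fit there were 6 rises and 0 falls, and Plk1 had an adjusted p = 0.0759.

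**Figure D5:**
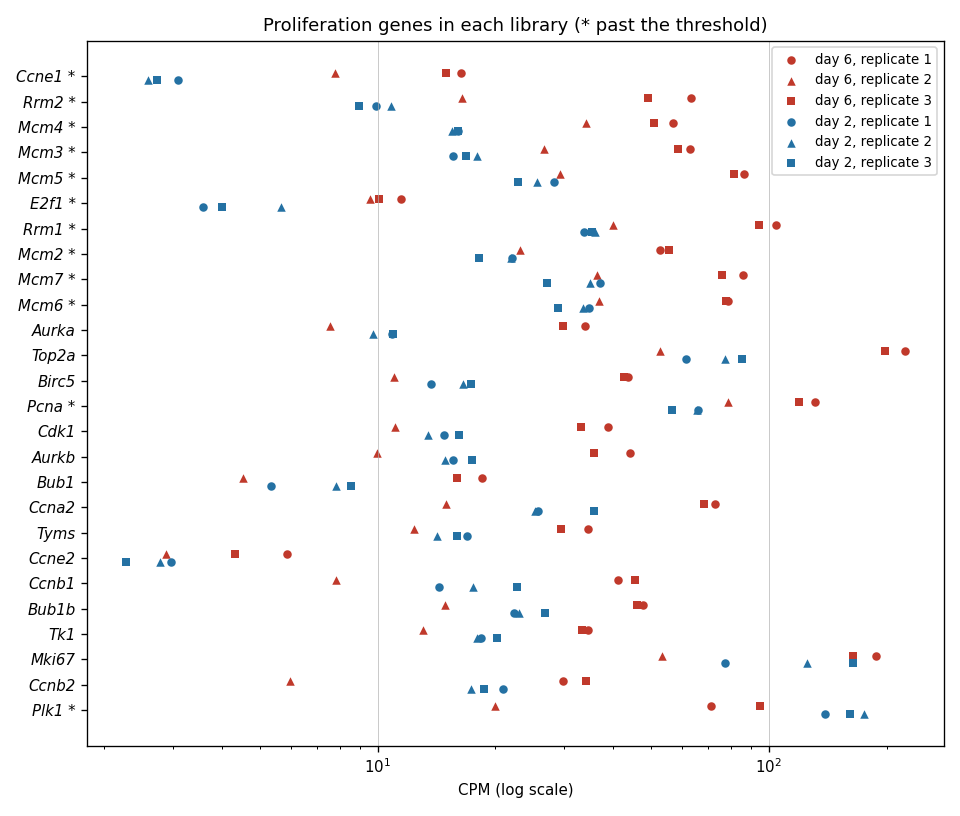
CPM on a log axis in each library for the 26 proliferation genes, day 6 in red above day 2 in blue, 1 symbol per replicate, with an asterisk where the difference passed the threshold. Day 6 replicate 2 lies near or below day 2 for mitotic genes such as Ccnb1 (7.81 CPM) and stays above it for Rrm2 (16.4 CPM).

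Enzymes that handle foreign compounds fell together. Of 24 phase I enzymes 19 fell and 0 rose, with a median of -1.78. Cyp2c55, a cytochrome P450 of the colon, had 66.3, 69.3 and 82.5 CPM in the day 6 libraries, against 2646, 3555 and 2108 CPM in the day 2 libraries (log2 fold change -5.21 ± 0.43, adjusted p = 5.77e-06). The day 6 libraries agreed closely, and none was near day 2. Ces2a, a carboxylesterase, had 15.3, 6.34 and 26.1 CPM at day 6, against 385, 436 and 252 CPM at day 2 (-4.56 ± 0.47, adjusted p = 2.77e-05). Of 27 conjugating enzymes 16 fell and 1, Mgst1, rose (130, 123 and 96 CPM at day 6, against 49.6, 53.9 and 44.1 CPM at day 2, 1.22 ± 0.17, adjusted p = 0.000226). Sult1a1, a sulfotransferase, had 25.9, 33.2 and 35.2 CPM at day 6, against 320, 283 and 223 CPM at day 2 (-3.09 ± 0.24, adjusted p = 2.94e-06). The glucuronosyltransferase Ugt2b35 had 1.56, 0.131 and 1.75 CPM at day 6, against 18.8, 21.3 and 18.1 CPM at day 2 (-3.35 ± 0.32, adjusted p = 1.40e-05).

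Genes of fat oxidation were mostly lower and genes of glycolysis and hypoxia mostly higher. Of 27 genes for oxidizing fatty acids and ketones 18 fell and 1 rose. Ppara, a nuclear receptor for fatty acids, had 7.12, 6.45 and 7.54 CPM in the day 6 libraries, against 30.2, 50.8 and 33.8 CPM in the day 2 libraries (log2 fold change -2.26 ± 0.21, adjusted p = 1.43e-05), with no overlap between the days, and Ppargc1a, a coactivator for mitochondrial genes, had 6.85, 5.33 and 13.6 CPM at day 6, against 40.2, 53 and 56.9 CPM at day 2 (-2.49 ± 0.27, adjusted p = 4.20e-05). Acadl was the rise (0.72, adjusted p = 0.00808). Of 26 hypoxia and glycolysis genes 15 rose and 1, Pfkfb4, fell (-0.89). Pfkfb3, which speeds glycolysis, had 200, 311 and 105 CPM at day 6, against 16, 12.2 and 12.1 CPM at day 2 (3.72 ± 0.30, adjusted p = 4.74e-06). Slc16a3, the lactate exporter, had 118, 87.6 and 81 CPM at day 6, against 11.6, 9.65 and 12.8 CPM at day 2 (2.96 ± 0.16, adjusted p = 3.20e-07). Hif1a, the oxygen-sensitive transcription factor, had 390, 373 and 357 CPM at day 6, against 85.7, 69.3 and 114 CPM at day 2 (2.07 ± 0.22, adjusted p = 3.08e-05).

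Of 13 mitochondrially encoded genes 8 fell and 0 rose. COX1, a subunit of cytochrome oxidase, had 12902, 13272 and 15965 CPM at day 6, against 25930, 29181 and 25635 CPM at day 2 (-0.94 ± 0.22, adjusted p = 0.00732). Under quantile normalization the sign turned (0.23, adjusted p = 0.586), and with only days 2 and 6 in the fit COX1 did not pass (adjusted p = 0.0549). In the fits without 1 library, 3 of the list were lower without day 2 replicate 2, 4 without day 2 replicate 1 or 3 or day 6 replicate 1, 5 without day 6 replicate 3 and 6 without day 6 replicate 2. Of 27 nuclear respiratory chain genes 2 fell and 0 rose, against 12.2% and 21.1% of all genes. Without day 6 replicate 3, 5 were lower, and 1 was lower in each of the other fits without a library.

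Of 23 solute carriers for nutrients 5 rose and 7 fell, the rises at about the 21.1% of all genes. Slc39a14, a zinc and iron importer induced in inflammation, had 264, 513 and 115 CPM at day 6, against 49.8, 59.5 and 51.6 CPM at day 2 (2.20 ± 0.39, adjusted p = 0.00128). Slc30a10, a manganese exporter, had 0.488, 0.209 and 0.238 CPM at day 6, against 3.8, 30.6 and 7.61 CPM at day 2 (-3.06 ± 0.50, adjusted p = 0.000756). Of 24 cholesterol synthesis genes 2 rose and 3 fell, against 21.1% and 12.2% of all genes. Without day 6 replicate 2, 7 rose, against 1 without any of the other libraries except day 2 replicate 3. Dhcr7, the last step to cholesterol, had 51.7 ± 21.4 CPM at day 6, against 102 ± 3.16 CPM at day 2 (-1.04 ± 0.23, adjusted p = 0.00441). Of 22 genes of prostaglandins and related lipids 9 rose and 5 fell. Ptges, which makes prostaglandin E2, had 109, 122 and 48.4 CPM at day 6, against 11.2, 7.97 and 10.4 CPM at day 2 (3.02 ± 0.28, adjusted p = 1.34e-05). Hpgd, which breaks prostaglandins down, had 37.8, 37.8 and 61.2 CPM at day 6, against 139, 172 and 142 CPM at day 2 (-1.74 ± 0.20, adjusted p = 7.30e-05).

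Of 17 genes of iron handling 11 rose and 1 fell, with ceruloplasmin, Cp, at 218, 359 and 86.1 CPM at day 6, against 12, 12.3 and 11.4 CPM at day 2 (3.88 ± 0.39, adjusted p = 2.43e-05). Of 17 genes of glucocorticoid response and local steroid synthesis 7 rose and 4 fell. The enzymes that set local glucocorticoid moved in opposite directions. Hsd11b1, which activates it, had 48.2, 67.4 and 24.9 CPM at day 6, against 6.74, 5.63 and 5 CPM at day 2 (2.71 ± 0.32, adjusted p = 7.62e-05). Hsd11b2, which inactivates it, had 58, 48.8 and 177 CPM at day 6, against 261, 240 and 273 CPM at day 2 (-1.68 ± 0.39, adjusted p = 0.00614). Nr3c2, the mineralocorticoid receptor that Hsd11b2 protects, also fell (37.3 ± 16.2 CPM at day 6, against 108 ± 8.6 CPM at day 2, -1.60 ± 0.27, adjusted p = 0.000828). The metallothionein Mt2 rose (575, 808 and 194 CPM at day 6, against 40.9, 39.2 and 35.1 CPM at day 2, 3.51 ± 0.39, adjusted p = 4.69e-05).

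Of 19 clock genes 3 rose and 4 fell, against 21.1% and 12.2% of all genes. Arntl, the core activator known as Bmal1, had 29.2, 27.9 and 20.4 CPM at day 6, against 54.9, 54.7 and 60.2 CPM at day 2 (-1.12 ± 0.16, adjusted p = 0.000294), its partner Npas2 had 10.7 ± 2.63 CPM at day 6, against 36.1 ± 2.49 CPM at day 2 (-1.69 ± 0.21, adjusted p = 0.000103), and Nfil3, a repressor that immune cells also use, rose (75 ± 39.5 CPM at day 6, against 14.8 ± 3.94 CPM at day 2, 2.14 ± 0.39, adjusted p = 0.00143). The hour of harvest was not used here. Only 1 clock gene rose without day 2 replicate 1 or 2. Of 24 genes of the unfolded protein response 10 rose and 2 fell. Hspa5, the main chaperone of the endoplasmic reticulum, had 1898, 970 and 1125 CPM at day 6, against 701, 619 and 685 CPM at day 2 (0.93 ± 0.22, adjusted p = 0.00733), but did not pass with only days 2 and 6 in the fit (adjusted p = 0.0552). Ern2, the stress sensor of goblet cells, had 34.6, 12.3 and 63.7 CPM at day 6, against 185, 216 and 201 CPM at day 2 (-2.69 ± 0.41, adjusted p = 0.000482). Of 19 immediate early genes 5 rose and 3 fell, against 21.1% and 12.2% of all genes, with Myc, a growth regulator, at 49.8 ± 15.8 CPM at day 6, against 18 ± 2.64 CPM at day 2 (1.38 ± 0.25, adjusted p = 0.00147) and Jund at 253 ± 28.4 CPM at day 6, against 454 ± 40.4 CPM at day 2 (-0.84 ± 0.14, adjusted p = 0.000663). Of the falls, 1 passed without day 6 replicate 1 or day 2 replicate 3.

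Of 20 housekeeping genes 6 rose, not far from the 21.1% of all genes, and 0 fell, with a median of 0.33, and 10 rose without day 6 replicate 2. Among the rises were Gusb (109 ± 3.61 CPM at day 6, against 46.9 ± 5.06 CPM at day 2, 1.20 ± 0.11, adjusted p = 9.94e-06) and Pgk1, which glycolysis uses (588 ± 142 CPM at day 6, against 245 ± 27.4 CPM at day 2, 1.23 ± 0.18, adjusted p = 0.000394).

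Markers of tissues that a colon sample could carry along were measured too, beside 21.1% of all genes higher and 12.2% lower. Skeletal muscle genes had a list level of 3.25, 0.93 and 0.90 in the day 6 libraries, against 1.32, 1.20 and 1.21 in the day 2 libraries, so day 6 replicate 1 stood alone. Of 13 tested 0 rose and 2 fell, Ckm and Eno3, while the list's median was 0.68 and, without day 6 replicate 1, -0.0083, and neither passed without day 2 replicate 1 (adjusted p = 0.0549 and 0.0606). Their part in other results was not tested. Of 6 adipocyte genes 1, Fabp4, rose (1.58), and of 6 mesothelial genes none passed, though without day 6 replicate 2 there were 2 falls. The single pancreatic acinar gene tested, Cela1, fell (14.5, 8.35 and 23.6 CPM at day 6, against 80, 45.3 and 68.2 CPM at day 2, -2.06 ± 0.40, adjusted p = 0.00239). The other 11 of the 12 acinar genes were below the level needed for testing, with means of 0 to 0.391 CPM on either day. Cela1 is therefore no measure of pancreas carried along, and the source of its reads was not tested. Of 5 Paneth cell genes 1 rose and 2 fell. The rise was Pla2g2a, a phospholipase that kills bacteria (36.3, 5.72 and 38.2 CPM at day 6, against 0.729, 0.22 and 0.253 CPM at day 2, 3.95 ± 0.56, adjusted p = 0.000289), lowest at day 6 in replicate 2, and without that replicate 2 genes rose. Of 4 genes of mast cells and eosinophils 1, Il5ra, rose (6.28 ± 3.65 CPM at day 6, against 0.524 ± 0.335 CPM at day 2, 2.11 ± 0.44, adjusted p = 0.00369), and 2 rose without day 2 replicate 1 or day 6 replicate 1.

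In terms of reads, the shift was large on both sides. Genes with a higher mean at day 6 gained 22.3% of all CPM in total, and genes with a lower mean lost 21.9%. The 10 genes that lost most gave up 6.53% of CPM, and the 10 that gained most took 2.32%. Muc2 alone fell to 2063 ± 837 CPM at day 6, against 16077 ± 2248 CPM at day 2. Among the 10 losses were also Clca1, Fcgbp, COX1, Cyp2c55, Pigr and Myh11. CYTB, mitochondrial cytochrome b, was another (-0.62 ± 0.22, adjusted p = 0.0464), but did not pass without day 6 replicate 1 (adjusted p = 0.148) or without day 2 replicate 1, 2 or 3 (adjusted p = 0.0975, 0.128 and 0.1). The other two were Rn45s, the ribosomal RNA precursor, and Dmbt1, a mucosal scavenger protein, which did not pass (4672, 6698 and 10643 CPM at day 6, against 5942, 17804 and 28114 CPM at day 2 for Rn45s, -1.05 ± 0.60, adjusted p = 0.209, and 6662, 2258 and 10114 CPM at day 6, against 9361, 9845 and 8896 CPM at day 2 for Dmbt1, -0.81 ± 0.46, adjusted p = 0.203). Rn45s passed without day 2 replicate 1 (-1.69, adjusted p = 0.0464) and in DESeq2 (adjusted p = 0.0462), and Dmbt1 without day 6 replicate 3 (-1.27, adjusted p = 0.0292). The 10 gains were Reg3b, Col3a1, Saa3, Serpina3n, B2m, C3, Igfbp5, Fth1, H2-K1 and Pkm, of which Fth1 did not pass with only days 2 and 6 in the fit (adjusted p = 0.0598). Igfbp5, a binding protein for insulin-like growth factors made by stroma, had 1651, 4061 and 1133 CPM at day 6, against 134, 131 and 178 CPM at day 2 (3.74 ± 0.39, adjusted p = 3.16e-05), with replicate 2 far above the other libraries.

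At the other end of the scale, 15 genes that rose had no read at day 2. Besides Mmp8, Il6, Cxcr2 and Marco, the highest of them was Wfdc12, a small protease inhibitor, with 16.9, 33.9 and 9.5 CPM at day 6, against 0, 0 and 0 CPM at day 2 (at least 749-fold higher). C78653 was the single gene with no read at day 6 that fell (0, 0 and 0 CPM at day 6, against 1.13, 2.09 and 1.46 CPM at day 2, -1.34 ± 0.23, adjusted p = 0.00108), which is at least 60.9-fold lower against a floor of 3 reads over the 3 day 6 libraries.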

How the data were processed

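RNA sequencing of mid-colon gave 12 libraries, 3 per day at days 0, 2, 4 and 6. Day labels and replicate numbers came from the labels. Poly(A) RNA was read as 150-base pairs, per the labels' protocols. The submitters' processing notes name the build mm10, the aligner HISAT2 2.2.1 and the counter featureCounts 2.0.1. Which annotation and strand setting the counter used is not stated in those sources, so overlapping, antisense and near-identical genes may share reads. The authors deposited 1 table of normalized values, identified as CPM from their size and steps. In it 100% of values were within 0.1 of a whole number of reads, giving 30979977 to 40930613 reads per library. A floor of 3 reads over the 3 libraries of a day covers counting error only.

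Every gene reaching 1 CPM in 3 or more libraries entered limma 3.58.1 (R 4.3.3) as log2(CPM + 1), which understates changes of low genes. Means of 4 days and 1 residual variance over 12 libraries were fitted, with trended and robust moderation, Benjamini-Hochberg adjustment over 15246 genes and a threshold of 0.05. All p-values are two-sided, fold changes carry their standard error, and CPM means their standard deviation over 3 libraries. Differences over 2-fold were tested with limma's treat at a log2 limit of 1. The scripts were tested on simulated data.

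The comparison, the 55 gene lists (1112 symbols) and the rule for named genes were chosen with earlier results of these data known, so lists are described by counts and medians without a test. Listed genes below the filter are left out of these counts. Genes near 0 CPM at day 2 entered through other days and had little room to fall. Named genes were the 15 largest rises and falls among named genes past the threshold with at least 5 CPM at the higher day and no overlap between days, up to 4 members of each list in its main direction and 2 in the other, the 10 largest gains and losses in CPM, a panel of 30 genes and the highest genes without reads at either day, 256 in all. Other genes were named after their values were seen, and a few genes of the rule are not reported here. Alternatives were pseudocounts of 0.5 and 5, no filter, a higher filter (mean of 5 CPM), quantile normalization, median-of-ratios scaling, plain moderation without trend or robustness, only days 2 and 6, array weights, a replicate block, edgeR 4.0.16 and DESeq2 1.42.0 on the recovered reads, and leaving out each library. Gene positions are from GENCODE release M21 (GRCm38) and promoters from RefSeq (GRCm38.p6).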

Additional observations from a re-analysis of the deposited data

How the results depend on the processing

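Of 247 named genes past the threshold, 217 kept their call and direction in every alternative that tested them, and 228 did so in all 6 fits without 1 library. The sign of a called value turned for COX1 (0.23, adjusted p = 0.586) and CYTB (0.52, adjusted p = 0.0818) under quantile normalization, for which the cause was not tested. Leaving out 1 library gave 2303 to 3909 genes higher, 1364 to 2162 lower, 478 to 848 higher by more than 2-fold and 144 to 351 lower by more than 2-fold. Restricting the fit to days 2 and 6 gave 2131 rises and 1299 falls past the threshold. In the test against 2-fold, that fit kept 422 rises and 134 falls. It left 8 of 15 falls among epithelial transcription factors, 6 of 10 in ion transport and 4 of 7 in nutrient carriers. Of the mitochondrially encoded genes it left 2 of 8 falls, and of the unfolded protein response 4 of 10 rises. The cause was not tested. A pseudocount of 5 left 362 higher and 113 lower by more than 2-fold, as it shrinks fold changes of low genes. Array weights, whose iterations stopped before convergence, gave 7203 higher and 4254 lower, of which 1292 and 654 were over 2-fold, and the cause was not tested. Named genes that passed with array weights but not in the main fit were Tnf, Mki67, Acta2, Epcam, Car1, Dmbt1 and Rn45s. For changes over 2-fold, edgeR gave 935 higher and 516 lower and DESeq2 395 lower, and the cause was not tested.

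The checks showed no pairing of the samples by replicate number, but they cannot exclude it. Deviations of libraries with different numbers correlated at -0.118 to 0.158. Deviations of same-numbered libraries from their day means correlated at 0.033, -0.023 and -0.155, and the replicate block gave 3361 higher and 1950 lower genes, 642 and 231 by more than 2-fold. In several lists a count of 0 or 1 in the minor direction moved by 1 without 1 library. Depth limited little, since 1 read was worth 0.0244 to 0.0281 CPM. The precision is limited by 3 libraries a day.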

Other observations

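Families of gene symbols, some with members in the lists above, were counted after their values were seen, so these counts are descriptions. All 8 Gimap genes tested, GTPases of lymphocytes that sit in 1 cluster, rose (median log2 fold change 1.21), and 7 of 8 Slfn genes, the schlafens, rose (median 2.67), against 21.1% of all genes. Of 14 Psmd genes, which encode the regulatory cap of the proteasome, 11 rose and 0 fell with a small median of 0.52. Of 11 Utp genes, of ribosomal RNA processing, 7 rose and 2 fell (median 0.45). All 11 Gbp genes rose (median 3.93).

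Of 11 Hoxa genes, which keep positional identity along the gut, 7 fell and 0 rose (median -0.60), against 12.2% of all genes lower. All 8 Ugt genes and 8 of 10 Ces genes fell (medians -1.89 and -2.17), and several of them share exons or near-identical sequence, so their members are not independent measurements. Of 35 Cyp genes 16 fell and 5 rose (median -0.67).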
